A study of Macrobrachium rosenbergii with 32 samples.

Results

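The repair outcomes at Mr-cofilin were compared between the 8 positive controls with the highest editing and the 8 with the lowest, 16 of the 32 samples of the series. For each positive control the indel share was calculated, which is the share of all aligned reads whose allele carried a deletion or an insertion in the window of 20 nt around the cut-site. The libraries were ranked by it, and the groups, called high-editing and low-editing here, were thus chosen by a measured value. The difference in total editing follows from this choice and was not tested. What was compared is the make-up of the indel reads, that is, which kinds of deletion and insertion they carried, in percent of the indel reads of each library.

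The methods describe the same treatment for both groups. In each of the 16 experiments, eggs of the giant freshwater prawn Macrobrachium rosenbergii were taken from 1 female, wild-type cells of embryos aged 10 to 14 days were put into primary culture and nucleofected with Cas9 bound to the sgRNA for Mr-cofilin, and DNA was extracted 3 days later. The other 16 samples are the negative controls of the same experiments, nucleofected without sgRNA. Each library is therefore 1 culture from 1 brood, and differences between broods, cultures and sequencing libraries cannot be told apart. The methods do not say whether different experiments shared a mother or a father. The p-values measure the spread between these libraries and treat them as independent. Amplicon reads hold no expression, so the cell types in the cultures were not checked.

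Cofilin is an actin-binding protein that severs and disassembles actin filaments. Cas9 cuts both DNA strands at the site of the sgRNA, and the cell rejoins the ends. Rejoining by non-homologous end joining typically leaves short deletions or insertions, whereas microhomology-mediated joining pairs short repeats on either side of the break and loses the bases between them. In yeast and human cells, filling of a staggered cut can copy the base next to the cut-site and give an insertion of a single base. The mix of these outcomes and the number of cut alleles are separate quantities, and the comparison asked whether they went together here.

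The gene lies on the minus strand of scaffold 867, in the numbering of the authors' annotation of this region. The sgRNA stands on the plus strand at 8770 to 8789, 79 nt beyond the last exon of the manual gene model (8869 to 8931) and inside the 3′ UTR of the automatic prediction (5712 to 8862). The sgRNA is shown with its PAM in capitals, in its own orientation, and the site and the alleles below it run from position -8 to position 16 in the orientation of the gene. Position 1 is the base to the right of the cut-site and position -1 the base to its left. The 10 alleles are those with the largest mean share of the indel reads over the 16 libraries, and they show how closely the outcomes cluster right of the cut-site. Capitals mark the bases that were lost or, in the insertion, the base that was added. Where the same product can come from the loss of either of 2 equal neighbours, the first is marked.
sgRNA with PAM: catatgactagctggccacaGGG
unedited site: cgccctgtggccagctagtcatat
loss of G at position 1: cgccctgtGgccagctagtcatat
insertion of G at the cut-site: cgccctgtGggccagctagtcatat
2-nt deletion of positions 2 to 3: cgccctgtgGCcagctagtcatat
5-nt deletion of positions 1 to 5: cgccctgtGGCCAgctagtcatat
loss of T at position -1: cgccctgTggccagctagtcatat
2-nt deletion of positions 1 to 2: cgccctgtGGccagctagtcatat
loss of C at position 3: cgccctgtggCcagctagtcatat
9-nt deletion of positions 1 to 9: cgccctgtGGCCAGCTAgtcatat
3-nt deletion of positions 2 to 4: cgccctgtgGCCagctagtcatat
3-nt deletion of positions 1 to 3: cgccctgtGGCcagctagtcatat

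The indel shares formed a gradient rather than 2 separate sets. In the high-editing group, experiments 13, 14, 4, 8, 3, 16, 15 and 12 had 54.9%, 53.2%, 53.1%, 50.1%, 48.6%, 45.6%, 45.2% and 43.9%. In the low-editing group, experiments 7, 9, 1, 2, 6, 11, 10 and 5 had 42.7%, 40.3%, 32.6%, 31.9%, 30.5%, 28.4%, 27.0% and 21.6%. Experiments 12 and 7 stand on either side of the boundary and are close to each other, whereas the gap between experiments 9 and 1 inside the low-editing group is wider. Ranked in the tables of the narrow window of 2 nt, all 16 libraries stayed in the same group. Experiments 12 to 16 were all high-editing, and every low-editing library came from experiments 1 to 11. Group and experiment number thus went partly together, and what belongs to each was not tested.

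Several features of the libraries touch the comparison. The positive controls had 17505 to 58396 aligned reads, and 6933 to 24930 indel reads with deletions of at most 16 nt, to which the comparison was limited because the tables of experiments 4 to 7 hold no longer deletion. Reads with longer deletions made up 0.00851% of the indel reads of experiment 8 and 1.60% to 4.98% in the other 11 forward tables. These reads count in the indel share, so the ranking includes longer deletions in the forward tables only. At the boundary, experiment 12 had 207 such reads and experiment 7 had 0. What this does to the ranking was not tested. The tables of experiments 4 to 7 are in reverse orientation, 1 of them in the high-editing and 3 in the low-editing group, which leaves 7 high-editing and 5 low-editing libraries in forward orientation. No pair of the 120 pairs of positive controls agreed within sampling noise over indel events (chi-square test, lowest value 2.31 per degree of freedom, p = 1.20e-06, experiments 10 and 11). This test covers counting error only, and the libraries were kept as separate samples because the labels name them as separate experiments.

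Experiment 8, a high-editing library, stood apart from the rest. It held 32 distinct indel events, against 83 to 256 in the other 15 libraries, although it was not the shallowest. Of these events 20 had at least 36 reads each, and the remaining 12 had 17 reads together. It had 1 read with both a deletion and an insertion, out of 11747 indel reads, and 105 reads with an insertion over 20 nt. The main differences in make-up are therefore given with and without it. In experiment 15, also a high-editing library, the negative control had an indel share of 1.67%, against 0.00948% to 0.0744% in the other 15 negative controls.

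**Figure D1:**
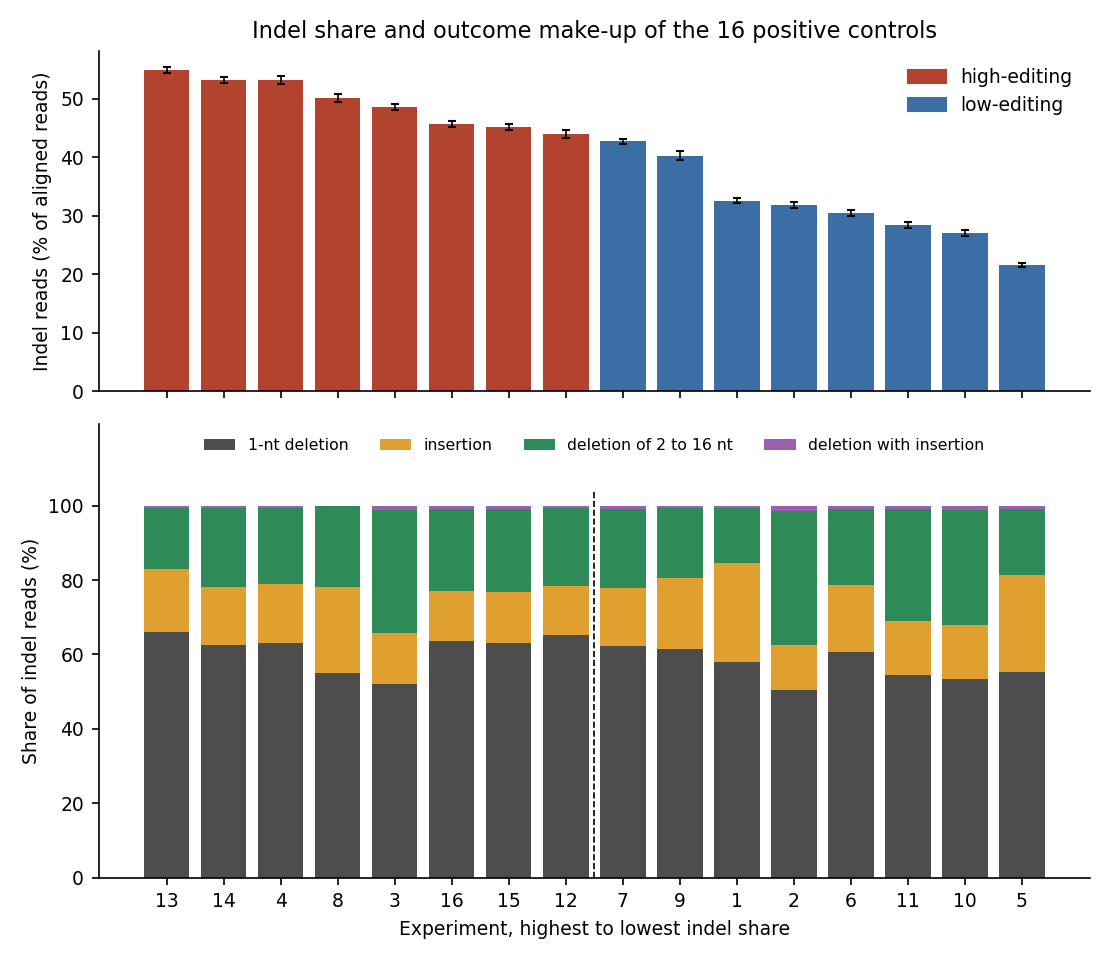
The upper panel plots the indel share of each positive control in percent of aligned reads (error bars, 95% Wilson intervals), with the 8 high-editing libraries left of the 8 low-editing ones, and the lower panel the make-up of their indel reads in percent. Experiment 13 has the highest indel share with 54.9% and experiment 5 the lowest with 21.6%, while the largest shares of longer deletions stand in both groups (experiments 3, 2, 10 and 11).

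The means of the 4 kinds of outcome came in the same order in both groups, with deletions of 1 nt first and longer deletions second, and none of the 5 outcome measures differed between the groups after adjustment (0% of the measures) or at an unadjusted p below 0.05 (0 of 5). Deletions of 1 nt without an insertion made up 61.3% ± 5.02 of the indel reads in the high-editing and 57.0% ± 4.28 in the low-editing libraries. Insertions without a deletion made up 15.7% ± 3.36 in the high-editing and 18.2% ± 5.42 in the low-editing libraries. Deletions of 2 to 16 nt made up 22.2% ± 4.69 in the high-editing and 23.7% ± 7.54 in the low-editing libraries, and reads with both a deletion and an insertion 0.773% ± 0.369 in the high-editing and 0.992% ± 0.298 in the low-editing libraries (SD, n = 8 each). The groups were compared by two-sided exact permutation tests over the 12870 ways to divide the libraries, with Benjamini-Hochberg adjustment over the 5 measures.

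The 1-nt deletion, the smallest loss, came closest to a difference. The high-editing libraries had 66.0%, 62.6%, 63.1%, 55.0%, 52.1%, 63.6%, 63.1% and 65.2% of their indel reads in it, in the order of their indel share. The low-editing libraries had 62.4%, 61.5%, 58.1%, 50.4%, 60.7%, 54.4%, 53.5% and 55.3%, in the same order. Thus 6 of the 8 high-editing libraries lay above every low-editing library, by little, as the lowest of these 6 had 62.6% and the highest low-editing library 62.4%. The other 2, experiments 8 and 3, lay within the low-editing range. The difference was 4.32 percentage points (95% interval -0.756 to 9.30, from inversion of the exact permutation test; p = 0.0856, adjusted p = 0.428). Without experiment 8 it was 5.23 percentage points (exact permutation test, p = 0.0427, adjusted p = 0.214), and without experiment 3 it was 5.64 percentage points (exact permutation test, p = 0.0199, adjusted p = 0.0995). Other removals shrank it, most that of experiment 2, to 3.38 percentage points (exact permutation test, p = 0.162, adjusted p = 0.405).

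The insertions were nearly all the addition of 1 G at the cut-site, beside the G that already stands there. The high-editing libraries had 17.0%, 15.6%, 15.7%, 23.3%, 13.8%, 13.6%, 13.5% and 13.0% of their indel reads as insertions, and the low-editing libraries 15.3%, 19.2%, 26.4%, 12.0%, 17.9%, 14.6%, 14.3% and 26.1%, both in the order of indel share. The low-editing group held the lowest value (experiment 2) and the 2 highest (experiments 1 and 5), so the high-editing values lay within its range. The difference was -2.54 percentage points (interval -7.41 to 2.32; exact permutation test, p = 0.269, adjusted p = 0.448). Without experiment 8, the only high-editing library above 17.0%, it was -3.63 percentage points (exact permutation test, p = 0.123, adjusted p = 0.308). Without either of the 2 low-editing libraries with the highest values it shrank, to -1.38 without experiment 1 (exact permutation test, adjusted p = 0.520) and to -1.42 without experiment 5 (exact permutation test, adjusted p = 0.516).

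Over the 16 libraries, deletions of 2 to 16 nt had the largest SD of the 4 kinds in percentage points, although within the high-editing group the SD of the 1-nt deletions was larger (5.02 against 4.69). The high-editing libraries had 16.3%, 21.0%, 20.4%, 21.8%, 32.8%, 21.8%, 22.4% and 21.0% of their indel reads in deletions of 2 to 16 nt, and the low-editing libraries 21.2%, 18.6%, 15.0%, 36.1%, 20.5%, 29.9%, 30.9% and 17.7%, both in the order of indel share. In the high-editing group 7 libraries lay between 16.3% and 22.4% and experiment 3 stood above them, whereas the low-editing group was spread on both sides of that range. The difference was -1.56 percentage points (interval -8.34 to 5.30; exact permutation test, p = 0.618, adjusted p = 0.618). Its direction turned on leaving out 1 library, experiment 2, without which it was 0.210 percentage points (exact permutation test, adjusted p = 0.946). It was -3.07 without experiment 3 and -1.49 without experiment 8 (exact permutation tests, adjusted p = 0.350 and 0.816). The medians, 21.4% in the high-editing and 20.9% in the low-editing libraries, stood in the other order than the means.

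Reads with both a deletion and an insertion were rare in every library, between 0.00851% and 1.29% in the high-editing and between 0.534% and 1.48% in the low-editing group. They differed by -0.219 percentage points (interval -0.583 to 0.131; exact permutation test, p = 0.219, adjusted p = 0.448), and by -0.110 without experiment 8 (adjusted p = 0.729).

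The diversity of outcomes was compared as the number of alleles, that is, of distinct table rows, expected when 6933 indel reads are drawn from each library. This was the number of indel reads of the smallest library, experiment 9. Rows that differ only in a substitution count as separate alleles here, and rows with 1 read count too. Experiment 13, for example, had 533 rows for 207 distinct indel events. The high-editing libraries held 264 ± 68.2 alleles at this depth and the low-editing libraries 286 ± 53.2 (SD, n = 8 each), a difference of -22.4 (interval -88.4 to 40.8; exact permutation test, p = 0.502, adjusted p = 0.618). Among the high-editing libraries experiment 8 was lowest with 116 alleles and experiment 3 highest with 357, and among the low-editing ones experiment 5 was lowest with 212 and experiment 11 highest with 370. Without experiment 8 the high-editing libraries had 285 ± 35.5 alleles (SD, n = 7), and the difference shrank to -1.28 (exact permutation test, adjusted p = 0.955). With all libraries and substitutions ignored, so that events are counted, the difference was -4.36 (exact permutation test, p = 0.827).

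**Figure D2:**
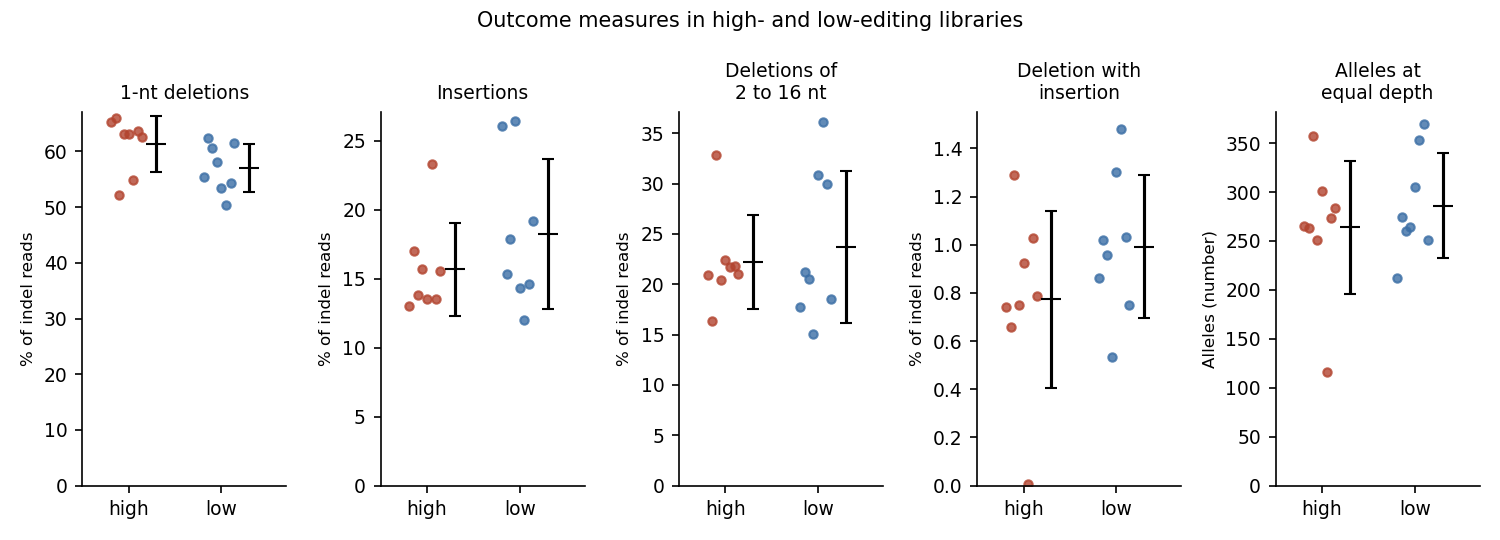
Each point is 1 library, with the 8 high-editing libraries left of the 8 low-editing ones in each panel, and the black marks give the mean and SD. The axes give percent of indel reads, or the number of alleles at 6933 indel reads, and the ranges of the groups overlap in all 5 panels, also for the 1-nt deletions with means of 61.3% in the high-editing and 57.0% in the low-editing libraries.

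The libraries themselves differed from each other far beyond the counting error. The SD over the 16 libraries was 5.03 percentage points for 1-nt deletions, 4.55 for insertions and 6.12 for deletions of 2 to 16 nt, whereas the largest counting error of a single library was 0.585, 0.473 and 0.533 percentage points. Counting errors cover the number of reads only, since no molecular identifiers are described. Libraries with like indel shares could have unlike mixes, and the reverse. As examples, chosen after their values were seen and not tested, experiments 1 and 2 had indel shares of 32.6% and 31.9% and the most unlike mixes of the low-editing group, with 26.4% and 12.0% insertions and 15.0% and 36.1% longer deletions. Experiments 4 and 6 had indel shares of 53.1% and 30.5% and mixes close to each other, with 63.1% and 60.7% 1-nt deletions and 20.4% and 20.5% longer deletions.

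The distance between libraries, the percent of indel reads that would have to change allele to turn one mix into the other, says the same in a single number, as a description with no test. It averaged 12.2% over the 28 pairs within the high-editing group, 13.6% over the 28 pairs within the low-editing group and 13.3% over the 64 pairs between the groups. Without experiment 8 these averages were 8.31% (21 pairs), 13.6% and 12.2% (56 pairs). The 7 high-editing libraries left were then on average closer to each other than the 8 low-editing ones, from which no library was left out. The closest pair was experiments 4 and 14 with 3.95%, and the farthest was experiments 8 and 16 with 26.8%, both within the high-editing group. Experiments 1 and 2 were 25.1% apart.

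Libraries with more insertions had fewer longer deletions. Across the 16 libraries Pearson's r of the 2 shares was -0.61 and Spearman's rho -0.75, and within the low-editing group rho was -1 (n = 8), within the high-editing group -0.38 (n = 8). These are descriptions with no test, because shares of the same indel reads cannot all go up together.

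**Figure D3:**
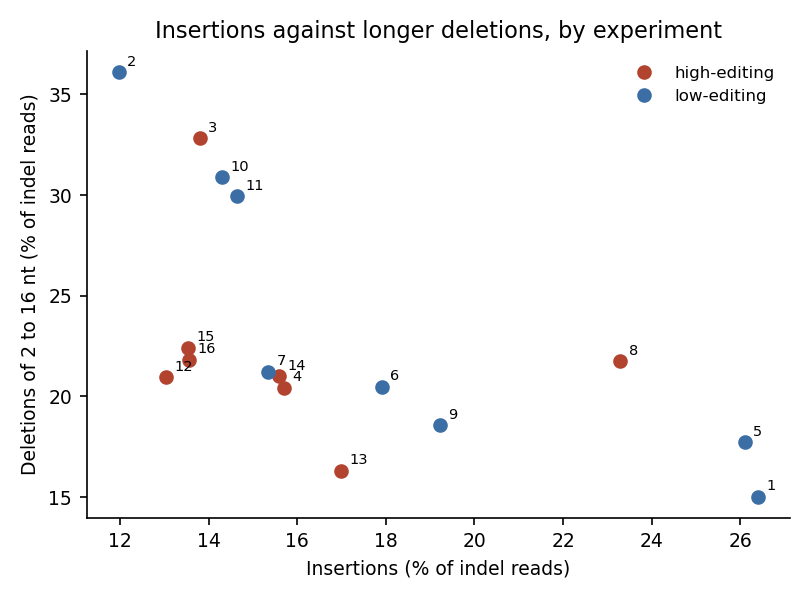
Each point is 1 library, labelled with its experiment, with insertions on the x axis and deletions of 2 to 16 nt on the y axis, both in percent of indel reads. Low-editing libraries stand at both ends, experiment 2 with 12.0% insertions and experiments 1 and 5 with 26.4% and 26.1%, and 7 high-editing libraries stand between 13.0% and 17.0%.

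Within the kinds of outcome, 8 further measures were compared, of which 0 passed the test after adjustment (0%) and 0 at an unadjusted p below 0.05 (exact permutation tests, lowest adjusted p = 0.901). Deletions at microhomology are those whose gap can be shifted without changing the product. They were counted among the deletions of 2 to 16 nt that form a single gap lying fully in view. Such deletions were 94.8% (experiment 2) to 98.7% (experiment 1) of the reads of that class. Deletions with at least 2 nt of microhomology made up 7.14% ± 1.20 of them in the high-editing and 8.10% ± 2.61 in the low-editing libraries. Their highest values were 8.83% in experiment 3 of the high-editing group, and 13.5% and 10.4% in experiments 1 and 5 of the low-editing group, the 2 libraries richest in insertions. The mean length of the deletions of 2 to 16 nt was 4.77 ± 0.325 nt in the high-editing and 4.92 ± 0.257 nt in the low-editing libraries. Its difference of -0.148 nt had an interval of -0.459 to 0.169 nt. Single libraries moved both differences. That in microhomology was -0.958 percentage points over all libraries, -0.187 without experiment 1 and -0.662 without experiment 8, and that in mean length was -0.234 nt without experiment 3 and -0.0764 nt without experiment 8 (exact permutation tests, lowest adjusted p = 0.570 for mean length and 0.628 for microhomology).

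Which base was lost or gained hardly varied. The loss of a G at position 1 made up 92.9% ± 4.71 of the 1-nt deletions in the high-editing and 94.0% ± 0.759 in the low-editing libraries. The wide spread of the high-editing group came from experiment 8, with 81.3%, and the other 7 had 93.6% to 95.5%. The difference was -1.11 percentage points over all libraries and turned to 0.540 without experiment 8 (exact permutation test, p = 0.197, adjusted p = 0.714). The insertion of a single G at the cut-site made up 96.8% ± 0.821 of the insertions in the high-editing and 96.7% ± 0.483 in the low-editing libraries, with a difference of 0.0788 percentage points (interval -0.652 to 0.778), and of 0.217 without experiment 8. Insertions longer than 1 nt were 2.26% ± 1.06 of the insertions in the high-editing and 2.12% ± 0.643 in the low-editing libraries (SD, n = 8 each), a difference of 0.138 percentage points that turned to -0.0875 without experiment 8.

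The balance between insertions and 1-nt deletions, as the log2 of their ratio, was -1.99 ± 0.34 in the high-editing and -1.69 ± 0.38 in the low-editing libraries, a difference of -0.29 (interval -0.68 to 0.10; exact permutation test, p = 0.130, adjusted p = 0.901). It depended on experiment 8, which had the highest ratio of its group at -1.24, against -2.32 to -1.92 in the other 7. Without this library the difference was -0.40 (exact permutation test, p = 0.0146, adjusted p = 0.117 over 8 measures). Leaving out experiment 5 instead shrank it to -0.21 (exact permutation test, p = 0.262, adjusted p = 0.959).

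Indel reads that kept both bases flanking the cut, and so changed the sequence only beside it, made up 14.3% ± 2.45 of the indel reads in the high-editing and 14.8% ± 4.09 in the low-editing libraries. They ran from 8.38% in experiment 1 to 20.9% in experiment 2, both low-editing. Indel reads that also carried a substitution made up 5.46% ± 1.35 in the high-editing and 5.83% ± 1.49 in the low-editing libraries (SD, n = 8 each). The difference was -0.408 percentage points (interval -4.05 to 3.20) for the first and -0.372 (interval -1.88 to 1.16) for the second measure. Without experiment 8 they were -0.964 and -0.377 (exact permutation tests, adjusted p = 0.714 for both). Other single libraries moved them too, as the first was 0.473 without experiment 2, and the second was -0.0344 without experiment 2 and -0.776 without experiment 3.

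The lengths of the deletions were compared one by one, in percent of the reads with a deletion and no insertion, and 0 of the 16 lengths passed the test after adjustment (0%) or at an unadjusted p below 0.05 (exact permutation tests, lowest adjusted p = 0.705). Deletions of 1 nt made up 73.4% ± 5.44 of these reads in the high-editing and 70.9% ± 7.71 in the low-editing libraries, and deletions of 2 nt made up 10.8% ± 2.34 in the high-editing and 11.1% ± 2.58 in the low-editing libraries. Among the longer deletions, those of 5, 9, 11 and 13 nt had higher means than both neighbouring lengths in both groups, chiefly those of 5 nt (3.29% ± 0.649 in the high-editing, 3.48% ± 0.895 in the low-editing libraries) and of 9 nt (1.93% ± 0.884 in the high-editing, 1.86% ± 0.852 in the low-editing libraries). The lengths of 5 and 9 nt are those of the 5-nt and the 9-nt deletion that start at position 1, printed above. The lowest p belonged to deletions of 6 nt, with 1.16% ± 0.498 in the high-editing and 1.65% ± 0.512 in the low-editing libraries (exact permutation test, p = 0.0729, adjusted p = 0.705). Their difference was -0.489 percentage points over all libraries and -0.323 without experiment 8, which had 0 reads of this length (exact permutation test, p = 0.151, adjusted p = 0.729). Without that library 0 of the 16 lengths passed the test and 0 had an unadjusted p below 0.05. Its removal turned the direction at 9 nt (0.0697 over all libraries, -0.171 without it) and at 14 nt (-0.0130 over all libraries, 0.0207 without it). On average 14 of the 16 lengths had a lower share in the high-editing libraries, with and without experiment 8, and these shares are parts of the same total.

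Single alleles were then compared as events, meaning the bases lost or gained with substitutions ignored. The 38 alleles with a mean of at least 0.1% of the indel reads held 97.4% ± 0.868 of them in the high-editing and 96.8% ± 0.994 in the low-editing libraries (SD, n = 8 each). None of the 38 passed the test after adjustment (0%, exact permutation tests, lowest adjusted p = 0.978), and 1 had an unadjusted p below 0.05. The 2 most frequent alleles alone, the loss and the gain of a G, held 72.2% ± 4.86 of the indel reads in the high-editing and 71.2% ± 7.79 in the low-editing libraries.

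The loss of the G at position 1 made up 62.0%, 58.8%, 59.5%, 44.7%, 49.6%, 60.7%, 60.0% and 61.1% of the indel reads of the high-editing libraries, in the order of indel share. In the low-editing libraries it made up 58.3%, 58.1%, 55.4%, 47.2%, 57.0%, 50.5%, 50.3% and 51.9%, in the same order. The lowest value of all was that of experiment 8 in the high-editing group. The means were 57.1% ± 6.32 in the high-editing and 53.6% ± 4.17 in the low-editing libraries, with a difference of 3.46 percentage points (interval -2.34 to 9.03; exact permutation test, p = 0.211, adjusted p = 0.978). Without experiment 8 the difference was 5.23 percentage points (exact permutation test, p = 0.0326, adjusted p = 0.902). Leaving out experiment 2 instead shrank it to 2.55 percentage points (exact permutation test, p = 0.358, adjusted p = 0.966). The insertion of a G averaged 15.2% ± 3.20 in the high-editing and 17.6% ± 5.28 in the low-editing libraries (interval of the difference -7.16 to 2.22). Its difference was -2.46 percentage points over all libraries, -3.48 without experiment 8, -1.32 without experiment 1 and -1.37 without experiment 5.

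The allele with the unadjusted p below 0.05 was the loss of the T at position -1, the only one of the 10 that lies left of the cut-site. It made up 2.55%, 2.14%, 2.26%, 3.65%, 1.68%, 2.12%, 1.85% and 1.58% of the indel reads of the high-editing libraries, and 1.94%, 1.77%, 1.92%, 1.43%, 1.50%, 1.80%, 1.22% and 2.11% of those of the low-editing libraries, both in the order of indel share. The groups overlapped, and experiment 8 was the highest. The difference was 0.518 percentage points (interval 0.0217 to 1.07; exact permutation test, p = 0.0404, adjusted p = 0.978). Without experiment 8 it was 0.315 percentage points, and the unadjusted p was no longer below 0.05 (exact permutation test, p = 0.0802, adjusted p = 0.902).

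For the other 7 alleles the means of the groups lay at most 0.345 percentage points apart. The 2-nt deletion of positions 2 to 3, which spares both bases that flank the cut, had 5.55% ± 1.23 in the high-editing and 5.89% ± 1.97 in the low-editing libraries. It was highest in experiment 2 with 8.78% and lowest in experiment 1 with 2.57%, both low-editing. The 5-nt deletion of positions 1 to 5, which has 1 nt of microhomology, had 2.62% ± 0.483 in the high-editing and 2.65% ± 0.760 in the low-editing libraries. The 2-nt deletion of positions 1 to 2 had 1.96% ± 0.669 in the high-editing and 1.85% ± 0.684 in the low-editing libraries, and the 9-nt deletion 1.48% ± 0.672 in the high-editing and 1.34% ± 0.701 in the low-editing libraries. The loss of the C at position 3 stood at 5.73% in experiment 8, against 0.591% to 2.45% in the other 7 high-editing and 0.612% to 1.91% in the low-editing libraries. The 3-nt deletions had 1.15% ± 0.232 (positions 2 to 4) and 1.12% ± 0.537 (positions 1 to 3) in the high-editing libraries, and 1.30% ± 0.414 and 1.31% ± 0.644 in the low-editing libraries. Without experiment 8 the differences of these 7 alleles lay between -0.588 and -0.00646 percentage points (exact permutation tests, lowest unadjusted p = 0.366).

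Other placements of a gap bear on these events. The tables in reverse orientation place the gap of some products with a substitution elsewhere than the forward tables do. The 2-nt deletion of positions 4 to 5 thus had 0.543% to 1.26% in the forward tables other than experiment 8, where it had 0 reads, and at most 0.0521% in the reverse tables. When alleles were matched by their exact product instead, a choice made after seeing the data, the 2-nt deletion of positions 2 to 3 had 5.30% ± 1.20 in the high-editing and 5.22% ± 1.91 in the low-editing libraries, and 0 of 41 alleles passed the test (exact permutation tests, lowest adjusted p = 0.998, with 1 allele at an unadjusted p below 0.05). Also, 249 of the 291 reads counted as the 5-nt deletion in experiment 8 carried substitutions. This is 85.6%, against 4.64% to 17.1% in the other 15 libraries. By exact product, that is, without substitutions, the 5-nt deletion had 2.02% ± 0.788 in the high-editing and 2.31% ± 0.662 in the low-editing libraries. Its lowest high-editing value was then 0.358%, against 2.15% as an event. The inverted run shown at the end can be placed as this deletion with substitutions. How many of the reads counted here hold that run was not determined.

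**Figure D4:**
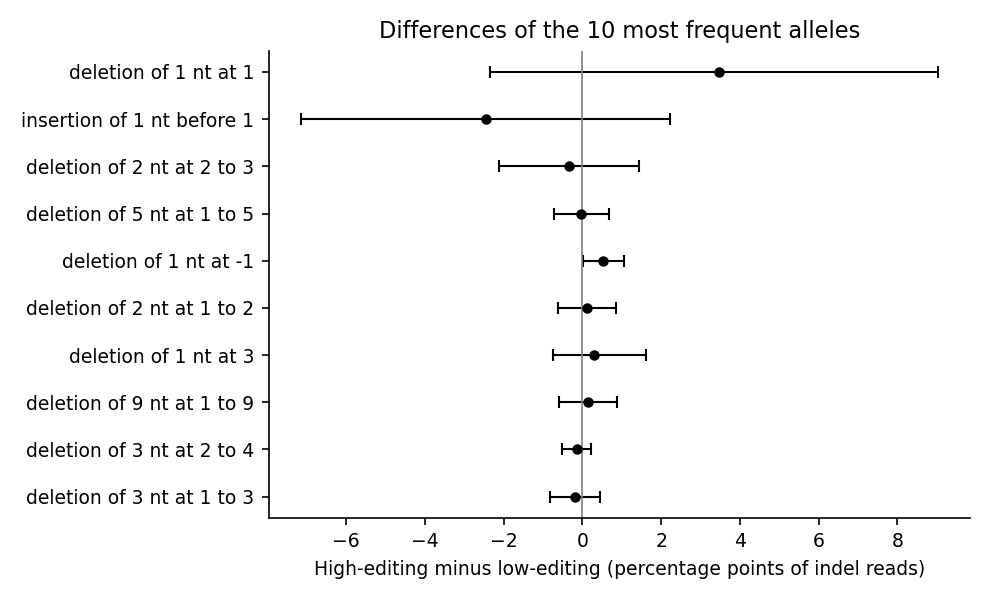
Each point is the difference between the high- and the low-editing libraries (high-editing minus low-editing) in the share of 1 of the 10 most frequent alleles, in percentage points of indel reads, and the bars are the 95% intervals from inversion of the exact permutation test. The intervals include 0 for 9 alleles, and that of the loss of the base at position -1 begins at 0.0217.

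The groups divide a continuous measure, so the 5 outcome measures were also set against the indel share itself, by permutation tests with 100000 resamples and adjustment over 10 coefficients. The share of 1-nt deletions went up with the indel share (Pearson's r = 0.552, p = 0.0284, adjusted p = 0.149; Spearman's rho = 0.550, p = 0.0297, adjusted p = 0.149; n = 16), which did not pass after adjustment. In the 12 forward tables r was 0.563 (permutation test, p = 0.0600, adjusted p = 0.229) and no correlation was taken over the 4 reverse tables. The 2 libraries farthest from the median indel share were experiments 5 and 10, both low-editing. With them left out, r was 0.456 (permutation test, p = 0.102, adjusted p = 0.446) and rho 0.516 (permutation test, p = 0.0615, adjusted p = 0.446). With only experiment 8 left out, r was 0.640 (permutation test, p = 0.0120, adjusted p = 0.0600). For the other 4 measures r lay between -0.380 and -0.204 and rho between -0.435 and -0.0559 over the 16 libraries (permutation tests, lowest adjusted p = 0.311), and without experiment 8 r lay between -0.404 and -0.0515 and rho between -0.361 and -0.0357 (lowest adjusted p = 0.465).

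**Figure D5:**
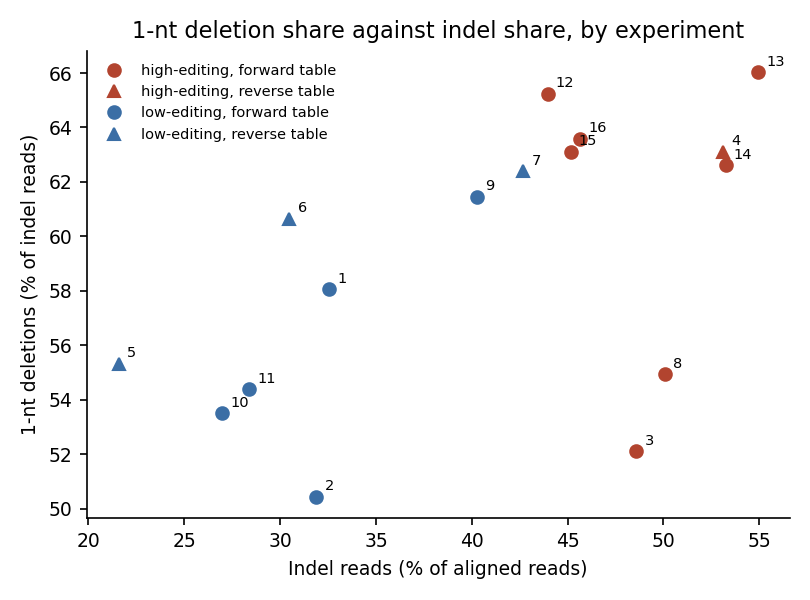
Each point is 1 library, labelled with its experiment, with the indel share in percent of aligned reads on the x axis and 1-nt deletions in percent of indel reads on the y axis, whose scale begins near 50%. Circles are forward and triangles reverse tables. Experiments 8 and 3, with 55.0% and 52.1%, stand below the other high-editing libraries, whose values are 62.6% to 66.0%.

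Within the forward tables, 7 high-editing and 5 low-editing libraries, 1-nt deletions made up 61.1% ± 5.37 in the high-editing and 55.6% ± 4.27 in the low-editing libraries, a difference of 5.52 percentage points (exact permutation test, p = 0.0922). Insertions differed there by -1.61, deletions of 2 to 16 nt by -3.67 and reads with both by -0.243 percentage points, and alleles by -42.8 (exact permutation tests, p = 0.553, 0.364, 0.323 and 0.321). In the reverse tables the single high-editing library had 63.1% 1-nt deletions and the 3 low-editing libraries 59.5% ± 3.69 (SD, n = 3), and the smallest p that 1 against 3 libraries allow in an exact permutation test is 0.25.

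Of 5 other library measures none differed between the groups after adjustment. The high-editing libraries had 31368 ± 8354 aligned reads and the low-editing libraries 35604 ± 12174 (SD, n = 8 each; exact permutation test, p = 0.437, adjusted p = 0.793). Their negative controls had a mean indel share of 0.237% ± 0.578 for the high-editing experiments, raised by experiment 15, and of 0.0374% ± 0.0199 for the low-editing ones (exact permutation test, p = 0.657, adjusted p = 0.793). Among reads without an indel, those with substitutions made up 2.19% ± 0.314 in the high-editing and 1.80% ± 0.395 in the low-editing libraries, a difference of 0.387 percentage points (interval 0.00939 to 0.771; exact permutation test, p = 0.0455, adjusted p = 0.228). Without experiment 8 it was 0.408 percentage points (exact permutation test, p = 0.0496, adjusted p = 0.248). Reads without an indel make up a smaller part of the high-editing libraries by the choice of the groups. This measure is therefore not independent of the ranking, and no conclusion was drawn from its p-values. Without sgRNA, substitutions alone were found in 1.11% ± 0.269 of the reads of the high-editing experiments and in 1.08% ± 0.0865 of those of the low-editing experiments (exact permutation test, p = 0.793, adjusted p = 0.793). What part these measures have in the make-up was not tested.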

How the data were processed

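PCR products spanning the sgRNA site were read on a MiSeq and assigned to alleles by the authors with CRISPResso2. The deposited tables give the count of reads of each allele over 40 columns, with the number of deleted, inserted and substituted bases, and were used as deposited. The version, filters and handling of read pairs are not given in the sources used here, and they could change which rare alleles appear. Window 20 of all libraries was used, and window 2 of the positive controls served to repeat the ranking, 48 of the 64 deposited files in all. The narrow-window tables of the negative controls and the other sgRNAs were not analysed here.

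Tables in reverse orientation were turned to that of the gene, and equivalent gap placements were merged by shifting each gap to the left in the orientation of the gene. Alleles with deletions over 16 nt were left out of the make-up and kept in the indel share, and alleles with 1 read were kept. The number of alleles at equal depth was calculated by hypergeometric rarefaction. Libraries were the replicates. Means were compared by two-sided exact permutation tests of 8 against 8 libraries, whose smallest p is 0.000155, with Benjamini-Hochberg adjustment within each family (5 outcome measures, 8 make-up measures, 16 lengths, 38 alleles, 5 library measures) and a threshold of 0.05. Intervals of 95% came from inverting the exact permutation test, and correlations were tested with 100000 resamples and a seed of 1. The 10 alleles with the largest mean share were named, as well as libraries at the boundary or whose removal changed a call or value. The groups, measures and lists were chosen with earlier results of these data known. The scripts were tested on simulated data. Tables were handled in pandas 2.3.3 under Python 3.11.15, statistics in SciPy 1.17.1 and NumPy 2.4.6, and plots in Matplotlib 3.10.9.

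Alternatives covered deletion lengths, minimum reads and shares, scales, subtraction of the negative control, medians, pooled reads, orientation, ranking window, the class of reads with both changes, allele definitions and leaving out libraries.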

Additional observations from a re-analysis of the deposited data

Results flagged for a closer look

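Among 58 groups of 8 libraries, 11 held a highest or lowest library far from the others of its group. Chance alone would flag about 1 in 20 independent groups. The groups here reuse the same libraries on overlapping measures, so the 11 flags are not separate departures and cannot be set against that rate. All 11 were in the high-editing group, and 7 of them were experiment 8. Its insertions stood at 23.3% of the indel reads, against 13.0% to 17.0% in the other 7 high-editing libraries, and its single-G insertion at 22.3%, against 12.4% to 16.5%. It had 116 alleles at equal depth, against 251 to 357. The loss of the G at position 1 made up 81.3% of its 1-nt deletions, against 93.6% to 95.5%, and its log2 ratio of insertions to 1-nt deletions was -1.24, against -2.32 to -1.92. The loss of the T at position -1 stood at 3.65% of its indel reads, against 1.58% to 2.55%, and the loss of the C at position 3 at 5.73%, against 0.591% to 2.45%.

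Experiment 3 stood above the other 7 high-editing libraries in deletions of 2 to 16 nt, with 32.8% against 16.3% to 22.4%. It was also the highest in the 5-nt deletion of positions 1 to 5, with 3.69% against 2.15% to 2.82%, and in the 3-nt deletion of positions 1 to 3, with 2.27% against 0.434% to 1.30%. In experiment 15 the negative control had an indel share of 1.67%, against 0.00948% to 0.0744% in the negative controls of the other 7 high-editing experiments.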

How the results depend on the processing

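None of the alternatives moved a measure, a length or an allele past the threshold, and the direction changed in 11 cases beside those from leaving out single libraries. Values are high-editing minus low-editing. The difference in deletions of 2 to 16 nt was 0.361 percentage points with alleles of at least 0.1% of all reads, 0.522 with medians and 0.618 in the reverse tables. That in alleles at equal depth was 4.75, 0.517 and 1.59 under the same settings. The value of 4.75 had an unadjusted p of 0.0497 (exact permutation test, adjusted p = 0.249). The cutoff of 0.1% is set on all reads, so among indel reads it is lower in the high-editing libraries by the choice of the groups. The values under this cutoff are therefore not independent of the ranking, and no conclusion was drawn from them. Deletions with microhomology of 1 nt or more differed by 0.472 percentage points. In the forward tables the share of the most frequent insertion differed by -0.0282, the 2-nt deletion of positions 1 to 2 by -0.0765 and the 9-nt deletion by -0.117 percentage points. By exact product the 2-nt deletion of positions 2 to 3 differed by 0.0800. The 3-nt deletion of positions 2 to 4 kept its direction by exact product, but its shares were lower than as an event. It then had 0.795% ± 0.335 in the high-editing and 0.970% ± 0.358 in the low-editing libraries. Its lowest high-editing value was 0.00851% by exact product, against 0.775% as an event.

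The difference in 1-nt deletions stayed positive throughout, between 2.91 and 6.43 percentage points in the settings in percent and between 3.38 and 5.64 on leaving out each library (exact permutation tests, adjusted p from 0.0995). On leaving out each library, changes of direction occurred in the ranges of deletions of 2 to 16 nt (-3.07 to 0.210), the most frequent 1-nt deletion among 1-nt deletions (-1.48 to 0.540), the most frequent insertion among insertions (-0.0418 to 0.299), insertions longer than 1 nt (-0.106 to 0.317), reads that keep both bases next to the cut-site (-1.32 to 0.473), the 2-nt deletions of positions 2 to 3 (-0.819 to 0.0674) and 1 to 2 (-0.0686 to 0.293), the 5-nt deletion (-0.180 to 0.125), the loss of C at position 3 (-0.260 to 0.475) and the 9-nt deletion (-0.0529 to 0.274). Without a change of direction the ranges were -3.63 to -1.38 percentage points for insertions, -0.293 to -0.110 for reads with both a deletion and an insertion, -35.7 to -1.28 for alleles at equal depth, -1.32 to -0.187 for microhomology, -0.234 to -0.0764 nt for mean length, -0.40 to -0.21 for the log2 ratio of insertions to 1-nt deletions and -0.776 to -0.0344 for indel reads with a substitution. Of the 16 lengths 0 passed on leaving out any library (exact permutation tests, lowest adjusted p = 0.179, a check added after seeing the data). The causes were not tested.

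No paired analysis was possible because the high- and low-editing libraries share no experiment number. The printed intervals give the precision that 8 libraries a group allow. For an event without a read, the limit of 3 counts is 0.0433% of the indel reads of the smallest library, and it covers counting error only.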

Other observations

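In each of the 16 positive controls some indel reads held a run in which positions 1 to 7 stand in reverse complement, followed by positions 13 to 17 in normal orientation. The run is shown with the inverted part in capitals, because the tables list such reads as a deletion or insertion with substitutions.
inverted run: GCTGGCCatatg
These reads made up 1.23% ± 0.694 of the indel reads in the high-editing and 1.09% ± 0.437 in the low-editing libraries (SD, n = 8 each). They lay between 0.645% and 2.85% in the high-editing and between 0.275% and 1.54% in the low-editing libraries. Without experiment 8 the other 7 high-editing libraries had 1.00% ± 0.253, between 0.645% and 1.37%. The highest value was that of experiment 8, with 335 of 11747 indel reads, and the lowest that of experiment 1, with 35 of 12739. All 16 negative controls together held 3 such indel reads. The run was chosen after it was seen in the data, and the groups were not tested for it.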
